A study of Mus musculus with 9 samples.

Results

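Raph1, Pard3, Emb, Flrt2, Myo6 and Ahnak are 6 genes for cell adhesion, cell polarity and the cytoskeleton whose RNA differed between groups of sorted group 2 innate lymphoid cells (ILC2s). ILC2s are tissue-resident lymphocytes of barrier tissues and the meninges that answer alarm signals such as interleukin-33 with type 2 cytokines. The 6 genes were found by symbol among the 23466 genes of the deposited count table, and all 6 were among the 15117 genes that passed the filter on low counts. They were selected on their CPM and fold changes between the groups of these same libraries, so their own levels and fold changes are given as a description, without a test.

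RNA was sequenced from 9 libraries, all of wild-type C57BL/6 mice at 10 weeks of age. The groups were ILC2s of brain meninges of mice given a spinal cord contusion of 80 kdyn and killed 24 h later (injured meninges), ILC2s of brain meninges of mice with no injury (uninjured meninges) and ILC2s of the lung of mice with no injury (uninjured lung), with 3 libraries each. Cells were gated as live CD45-positive, lineage-negative cells with ST2 and Thy1, and 5 mice were pooled per group. Nothing in the labels says whether the 3 libraries of a group came from separate pools, so the spread between them may be technical. No group was labelled as sham-operated, so contusion and surgery cannot be told apart.

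The proteins act at different places between the membrane and the actin network. Raph1 encodes lamellipodin, an adaptor that brings Ena/VASP proteins, which lengthen actin filaments, to the leading edge of moving cells. Pard3 encodes the scaffold of the Par complex, which sets up cell polarity, in lymphocytes among other cells. Emb encodes embigin, an immunoglobulin-family glycoprotein that supports adhesion and escorts monocarboxylate transporters to the membrane. Flrt2 encodes a leucine-rich repeat membrane protein that binds Unc5 receptors and latrophilins on neighbouring cells. Myo6 encodes myosin VI, the motor that walks towards the opposite end of actin filaments from other myosins. Ahnak encodes a giant scaffold under the membrane that binds the complex of annexin A2 and S100A10.

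The stretch just before the start of a gene holds part of its promoter, and it is shown for the 5 genes whose level differed between injured and uninjured meninges, so that those higher and those lower after injury can be set side by side. Each is the 250 bases before a RefSeq start on build GRCm38.p6, read along the gene. Raph1 is chr1:60566766-60567015 on the minus strand. The plus strand holds Pard3 (chr8:127063806-127064055, the first of 2 listed starts), Emb (chr13:117220323-117220572), Flrt2 (chr12:95691976-95692225) and Myo6 (chr9:80164784-80165033). Capitals mark matches, on either strand, to 4 motifs: TGACTCA of AP-1 factors, GATAAG as the site of GATA factors, TGTGGT as that of RUNX factors, and GGGAA, the core shared by NF-kB and Ikaros sites.
Raph1: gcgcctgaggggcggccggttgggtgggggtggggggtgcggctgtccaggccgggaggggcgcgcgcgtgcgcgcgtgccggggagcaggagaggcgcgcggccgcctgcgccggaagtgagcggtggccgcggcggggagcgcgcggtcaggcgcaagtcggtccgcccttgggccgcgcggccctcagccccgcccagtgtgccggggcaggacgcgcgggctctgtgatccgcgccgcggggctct
Pard3: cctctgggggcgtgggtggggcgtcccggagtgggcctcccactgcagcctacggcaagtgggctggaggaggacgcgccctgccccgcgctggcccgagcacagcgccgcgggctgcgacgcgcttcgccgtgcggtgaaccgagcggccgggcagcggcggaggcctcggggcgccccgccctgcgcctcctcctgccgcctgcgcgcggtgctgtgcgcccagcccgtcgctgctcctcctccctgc
Emb: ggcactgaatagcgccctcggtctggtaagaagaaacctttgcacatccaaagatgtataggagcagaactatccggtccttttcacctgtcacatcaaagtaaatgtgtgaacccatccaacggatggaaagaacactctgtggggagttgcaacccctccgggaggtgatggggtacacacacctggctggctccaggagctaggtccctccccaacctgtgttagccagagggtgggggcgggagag
Flrt2: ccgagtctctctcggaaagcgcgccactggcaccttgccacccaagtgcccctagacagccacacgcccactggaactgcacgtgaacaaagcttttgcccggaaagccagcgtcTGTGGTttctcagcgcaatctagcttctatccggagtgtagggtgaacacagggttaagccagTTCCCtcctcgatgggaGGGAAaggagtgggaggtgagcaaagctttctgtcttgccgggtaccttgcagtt
Myo6: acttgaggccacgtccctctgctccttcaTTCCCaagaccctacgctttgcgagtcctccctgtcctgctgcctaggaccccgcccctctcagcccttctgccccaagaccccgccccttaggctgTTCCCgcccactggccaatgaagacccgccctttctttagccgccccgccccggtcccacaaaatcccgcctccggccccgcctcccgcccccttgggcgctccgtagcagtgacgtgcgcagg

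The windows of Raph1 and Pard3 were rich in G and C, at 81.6% and 79.2%, which is above 99.3% and 98.4% of 32817 such windows of mouse genes. They held 41 and 34 CpG pairs, against a median of 6. The window of Emb, also higher after injury, was ordinary, with 54.8% G and C and 6 CpG pairs. Flrt2 had 57.2% with 12 CpG pairs, Myo6 67.6% with 18 and Ahnak 66.4% with 18. None of the windows of Raph1, Pard3 (both starts) or Emb held any of the 4 motifs. GGGAA occurred 2 times each before Flrt2, Myo6 and Ahnak, and 56.2% of all windows hold it. TGTGGT occurred 1 time, 135 bases before the start of Flrt2, and 14.0% of windows hold it. No match overlapped another. TGACTCA, held by 4.46% of windows, and GATAAG, held by 6.55%, occurred before none of the 6 genes.

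Counts per library ran from 13407277 to 18253462, and a count of 3 stood for 0.163 to 0.239 CPM (counts scaled to library size after trimmed mean of M values adjustment). The injured meninges 2 library stood apart, with 13465 genes detected, against 15761 to 18452 in the other libraries. The 8 genes of the sort gate and of ILC2 identity had counts in every group. Il1rl1, which encodes ST2, averaged 2379 ± 400 CPM in injured meninges, 2188 ± 337 in uninjured meninges and 2147 ± 280 in lung (SD, n = 3 each), and Thy1, also in the gate, averaged 68.0 ± 21.6, 225 ± 56.3 and 152 ± 14.0. In these pooled cells, more cells with a transcript and more transcript per cell cannot be told apart.

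Raph1, Pard3 and Emb were higher in injured than in uninjured meninges, Flrt2 and Myo6 were lower, and Ahnak was nearly level between them. Of the 6 genes, 5 passed an edgeR adjusted p under 0.05, against 0.192% of all genes tested (29 of 15117). The 3 higher genes stand beside 0.132% of all genes called higher, and the 2 lower genes beside 0.0595% called lower. The same 5 had groups that did not overlap, against 12.1% of all genes. These counts follow from how the genes were chosen, and nothing is read from them. Without injured meninges 2, 4 passed, against 0.109% of genes. Fewer passed without uninjured meninges 2 (3, against 0.116%) and with only the 6 meningeal libraries in the fit (2, Pard3 and Emb, against 0.0901%).

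**Figure D1:**
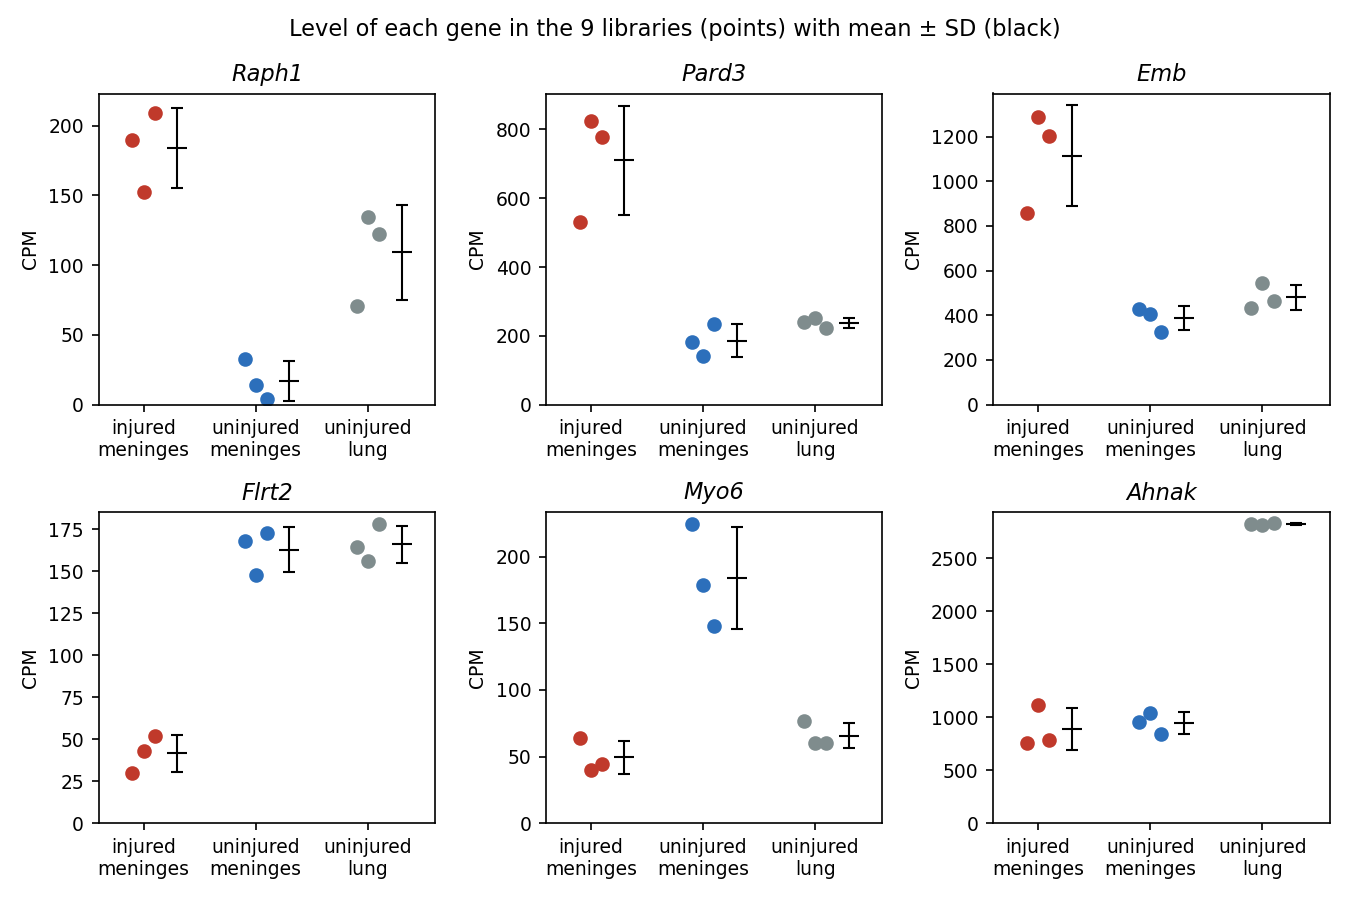
Level of each gene (y axis, CPM from 0) in the 3 libraries of each group (points) with mean ± SD in black. Raph1, Pard3 and Emb are highest in injured meninges, Flrt2 and Myo6 are low there, and the 3 lung libraries of Ahnak lie at 2810 to 2827 CPM.

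Raph1 stood at 189.6, 152.5 and 209 CPM in injured meninges 1, 2 and 3, at 32.6, 14.0 and 4.03 CPM in uninjured meninges and at 70.4, 135 and 122 CPM in lung. The 3 groups did not overlap, and the order was injured meninges, lung, uninjured meninges. Means were 184 ± 28.7 CPM in injured and 16.9 ± 14.5 CPM in uninjured meninges, a log2 fold change of 3.44 ± 0.56 (SE). The size of this change moved with the low uninjured libraries: it was 4.35 without uninjured meninges 1 and 2.98 without uninjured meninges 3. The threshold was missed without uninjured meninges 2 (3.32) or injured meninges 2 (3.56). The lowest of these libraries still held 60 counts. Uninjured meninges differed from lung by -2.69 ± 0.54 on the log2 scale, or by -3.60 without uninjured meninges 1. In that comparison the threshold was missed without uninjured meninges 2, injured meninges 2, lung 2 or lung 3. It was also missed with no filter on low counts and with only the 6 libraries compared. Injured meninges differed from lung by 0.75 ± 0.51.

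No other gene of leading-edge actin assembly passed the test after injury. Of 39 tested members of that list, edgeR and DESeq2 called none, and 2 had an unadjusted p under 0.05. Fold changes were above 0 for 21 and below 0 for 18 of them. Apbb1ip, the other member of lamellipodin's family, which links Rap1 to integrin activation, averaged 318 ± 193 CPM in injured and 219.8 ± 27.5 CPM in uninjured meninges (adjusted p = 0.68). The Ena/VASP genes that lamellipodin binds were also not called. Enah averaged 56.8 ± 19.8 against 76.2 ± 39.3 CPM, Vasp 58.2 ± 21.1 against 86.2 ± 30.2, and Evl 47.3 ± 13.0 against 45.1 ± 10.0. The smallest p of the list was that of Nckap1l, a subunit of the blood cell WAVE complex, at 211 ± 23.2 against 136 ± 11.1 CPM (log2 fold change 0.64 ± 0.24, edgeR adjusted p = 0.48).

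Pard3 was the second gene with a higher level after injury. It stood at 530.2, 824 and 777 CPM in injured meninges, at 181, 141 and 236 CPM in uninjured meninges and at 240.3, 251 and 221.5 CPM in lung. All injured libraries lay above the other 6, while uninjured meninges and lung overlapped. The means were 710.4 ± 158 CPM in injured and 186 ± 47.6 CPM in uninjured meninges, a log2 fold change of 1.93 ± 0.24.

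The CPM of genes whose products partner Par-3, not scaled to gene length, differed widely. Of the Par-6 genes, Pard6a was under the filter on low counts, and Pard6b averaged 1.37 ± 1.98 CPM in injured and 0.216 ± 0.187 CPM in uninjured meninges (edgeR adjusted p = 0.68). Pard6g averaged 7.65 ± 0.65 against 11.3 ± 8.93 CPM. The atypical protein kinase C genes had 65.0 ± 27.2 against 37.6 ± 6.25 CPM for Prkci and 7.13 ± 6.5 against 11.1 ± 5.95 CPM for Prkcz, neither of them called. Tiam1, an exchange factor for Rac that Par-3 binds, averaged 141.5 ± 21.7 against 97.3 ± 32.9 CPM, and the 14-3-3 gene Ywhaz averaged 969 ± 226 against 893 ± 91.4 CPM, also not called. None of 30 tested polarity genes was called by edgeR in this comparison, and 1 had an unadjusted p under 0.05. That gene was Dlg5, a scaffold of the Scribble group, with 15.4, 24.2 and 13.6 CPM in injured and 7.02, 5.49 and 2.35 CPM in uninjured meninges (log2 fold change 1.84 ± 0.64, edgeR adjusted p = 0.45). DESeq2 called it, with an adjusted p of 0.0135.

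Emb was the most abundant of the 3 higher genes, also per length. It stood at 857, 1287 and 1201 CPM in injured meninges, at 430.2, 406 and 327 CPM in uninjured meninges and at 433, 544 and 464 CPM in lung. All injured libraries lay above all others, and lung lay just above uninjured meninges, where the lowest lung library and the highest meningeal library nearly touched. The means of 1115 ± 227 and 388 ± 53.7 CPM in injured and uninjured meninges gave a log2 fold change of 1.52 ± 0.20. On the opposite strand the predicted gene Gm17509 shares 686 exon bases with Emb in GENCODE M21. It held 1975 counts over all libraries, against 90424 for Emb, and the strand setting of the counting is not stated.

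The monocarboxylate transporters that embigin and its relatives escort were low in CPM. Slc16a7, a partner of embigin, averaged 6.52 ± 1.67 CPM in injured and 8.47 ± 10.7 CPM in uninjured meninges. Slc16a1 averaged 10.5 ± 8.27 against 20.6 ± 26.4 CPM and Slc16a3 3.58 ± 3.0 against 3.14 ± 1.21 CPM. The related escort proteins basigin (Bsg, 34.7 ± 20.3 against 23.7 ± 5.5 CPM) and neuroplastin (Nptn, 65.0 ± 20.2 against 70.6 ± 9.21 CPM) were likewise not called. In all, none of the 8 tested genes of this list was called by edgeR or DESeq2, and no unadjusted p was under 0.05. Among 19 tested adhesion molecules of the immunoglobulin family, none was called by either tool and 3 had an unadjusted p under 0.05. The smallest belonged to Cadm1, which holds cells together through like molecules, with 7.83, 13.0 and 0.251 CPM in injured and 1.14, 0 and 0 CPM in uninjured meninges (edgeR adjusted p = 0.49).

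Flrt2 was lower after injury. It stood at 29.75, 42.8 and 52.1 CPM in injured meninges, at 168, 148 and 173 CPM in uninjured meninges and at 165, 156 and 178 CPM in lung. The injured libraries lay below the other 6, and uninjured meninges and lung overlapped throughout. Means of 41.5 ± 11.2 CPM in injured and 163 ± 13.4 CPM in uninjured meninges gave a log2 fold change of -1.97 ± 0.28, while uninjured meninges and lung differed by -0.03 ± 0.27.

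Both relatives of Flrt2 were scarce in meninges, and its receptors differed in CPM. Flrt1 averaged 2.71 ± 4.69 CPM in injured and 1.39 ± 1.33 CPM in uninjured meninges. Flrt3 was at 0, 1.03 and 0.0627 CPM in injured meninges, at 0 in the 3 uninjured meningeal libraries and at 12.2, 3.46 and 9.42 CPM in lung. The receptor genes had 15.3 ± 11.3 against 13.8 ± 1.88 CPM for Unc5b, 44.9 ± 15.7 against 45.0 ± 10.7 for Adgrl1 and 32.6 ± 11.8 against 41.4 ± 13.5 for Adgrl2, both latrophilins. The latrophilin gene Adgrl3 averaged 0.518 ± 0.897 against 2.19 ± 3.39 CPM and Unc5a 4.96 ± 6.68 against 8.69 ± 5.34 CPM, while Unc5c was at 0 in all 6 meningeal libraries, and it and Unc5d were under the filter on low counts. No tested gene of these was called. Among all 11 tested genes of the list, edgeR called none, while 4 had an unadjusted p under 0.05. Fgfr1, a fibroblast growth factor receptor gene, had the smallest (edgeR adjusted p = 0.48) and was called by DESeq2, with an adjusted p of 0.036. Its libraries stood at 1.20, 13.4 and 0.439 CPM in injured and 0.381, 0 and 0 CPM in uninjured meninges, so that injured meninges 2 held most of it.

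Myo6 was the other gene with a lower level after injury. It stood at 63.7, 39.9 and 44.4 CPM in injured meninges, at 224, 179 and 148 CPM in uninjured meninges and at 76.4, 60.4 and 60.15 CPM in lung. Uninjured meninges lay above all other libraries, and injured meninges and lung overlapped. Means were 49.4 ± 12.7 CPM in injured and 184 ± 38.2 CPM in uninjured meninges, a log2 fold change of -1.90 ± 0.31. The threshold was missed without uninjured meninges 1, uninjured meninges 2 or injured meninges 3, with fold changes of -1.73, -1.92 and -1.82. Uninjured meninges exceeded lung by 1.49 ± 0.30 on the log2 scale, and missed the threshold without uninjured meninges 1 or 2 or any of the lung libraries. Injured meninges differed from lung by -0.41 ± 0.30.

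In CPM, not scaled to gene length, the cargo adaptors of myosin VI ran from high to near 0. Tax1bp1, an adaptor that ties myosin VI to autophagy, had the highest CPM, at 407 ± 84.9 in injured and 367 ± 47.2 in uninjured meninges. Lrch3 followed at 212 ± 81.8 against 172 ± 27.6 CPM. Lmtk2 averaged 88.4 ± 17.6 against 72.1 ± 26.9 CPM, Tollip 62.6 ± 14.3 against 40.9 ± 8.48, Calcoco1 44.9 ± 8.35 against 22.9 ± 23.0 and Tom1l2 36.1 ± 20.2 against 43.0 ± 15.1. Dab2, an endocytic adaptor, averaged 13.9 ± 11.4 against 27.7 ± 15.3 CPM and Tom1 1.47 ± 2.4 against 5.28 ± 2.01 CPM. Gipc1 averaged 0.916 ± 1.59 against 0.494 ± 0.194 CPM and Optn 0.352 ± 0.331 against 0.943 ± 1.63 CPM. Of 26 tested adaptors and unconventional myosins, edgeR called none, while 3 had an unadjusted p under 0.05. DESeq2 called Myo5c lower and Myo3b higher. Myo5c was at 0 CPM in the 3 injured libraries and at 0, 4.58 and 6.38 CPM in uninjured meninges (edgeR adjusted p = 0.35). Myo3b, known from the stereocilia of hair cells, stood at 37.0, 0.636 and 17.9 CPM in injured and 1.91, 0.323 and 0.672 CPM in uninjured meninges (edgeR adjusted p = 0.35), and it was not raised in injured meninges 2.

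Ahnak separated the tissues. It stood at 759, 1114 and 788 CPM in injured meninges, at 954, 1043 and 841 CPM in uninjured meninges and at 2817, 2810 and 2827 CPM in lung. The meningeal groups overlapped, and all 6 meningeal libraries lay below the lung libraries. Uninjured meninges averaged 946 ± 101 CPM and lung 2818 ± 8.7 CPM, a log2 fold change of -1.57 ± 0.18. The lung libraries agreed within a coefficient of variation of 0.309%, the smallest of any of the 6 genes in any group. Between injured and uninjured meninges the log2 fold change was -0.09 ± 0.17, with a range of -0.29 to 0.02 over 15 alternatives. Of the 6 genes, 3 passed the edgeR threshold between uninjured meninges and lung (Raph1, Myo6 and Ahnak), against 0.635% of all genes. Myo6, higher in meninges, stands beside 0.0397% of all genes called higher, and the other two beside 0.595% called lower. Groups did not overlap for 4 of the 6, against 18.2% of all genes. These counts, too, follow from the choice of genes.

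Of the genes whose products bind or resemble Ahnak, S100a10 averaged 106 ± 35.7 CPM in uninjured meninges and 129 ± 17.6 CPM in lung. Anxa2 averaged 7.84 ± 1.91 against 12.0 ± 5.03 CPM, and neither was called (edgeR adjusted p = 0.97 and 0.99). Ahnak2, the relative of Ahnak, stood at 0.272, 0 and 0 CPM in uninjured meninges and 12.7, 1.69 and 6.02 CPM in lung (edgeR adjusted p = 0.42, DESeq2 adjusted p = 0.0308). Among all 19 tested annexin, S100 and ferlin genes and other partners, edgeR called none and 4 were at an unadjusted p under 0.05. Of their fold changes, 16 were below 0 and 15.8% above it, against 50.1% above 0 over all genes, with a median of -0.61. Ahnak2, Cacnb2 (0.552 ± 0.842 against 6.61 ± 6.63 CPM) and Prx (0.493 ± 0.799 against 5.39 ± 5.94 CPM) were low in meninges. They could pass the filter on low counts through lung, which fixes or tilts their sign, so nothing is read from this count. The smallest p was that of Plcg1, a phospholipase C gene, higher at 87.4 ± 15.8 against 42.7 ± 10.3 CPM without being called (edgeR adjusted p = 0.32). After injury none was called by either tool, and no unadjusted p was under 0.05. Ahnak2 had the smallest p there (edgeR adjusted p = 0.68), with 0 CPM in the 3 injured libraries.

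**Figure D2:**
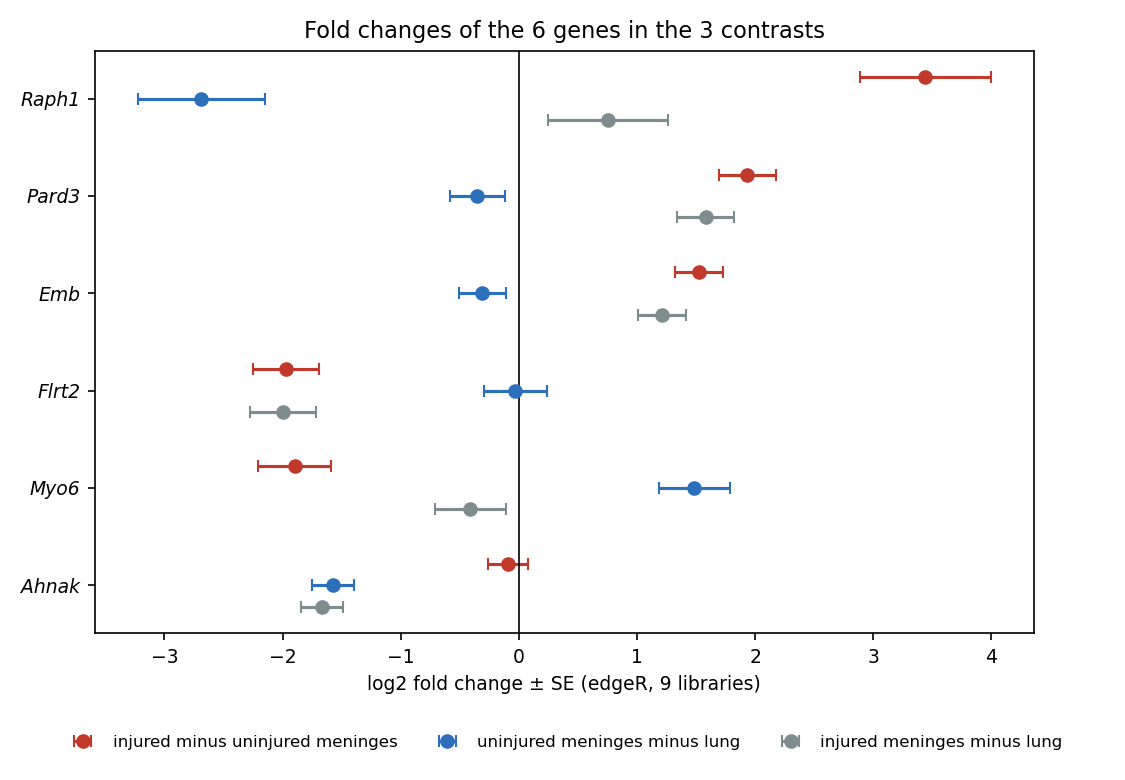
Log2 fold change ± SE (x axis) of the 6 genes in the 3 contrasts between groups, from 1 edgeR fit of 9 libraries. Raph1, Pard3 and Emb lie right of 0 and Flrt2 and Myo6 left of 0 after injury (red), and Ahnak is displaced from 0 only in the contrasts with lung.

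Levels can be compared between genes only per length, here as CPM per kilobase of merged exons in GENCODE M21. In injured meninges the order was Emb at 161 ± 32.9, Pard3 at 49.0 ± 10.9, Ahnak at 44.5 ± 9.88, Raph1 at 8.96 ± 1.40, Flrt2 at 5.38 ± 1.45 and Myo6 at 4.09 ± 1.05. Pard3 and Ahnak, and Flrt2 and Myo6, lay within their spread of each other. In uninjured meninges it was Emb at 56.2 ± 7.78, Ahnak at 47.5 ± 5.07, Flrt2 at 21.1 ± 1.73, Myo6 at 15.2 ± 3.16, Pard3 at 12.8 ± 3.28 and Raph1 at 0.823 ± 0.707. Raph1, last in uninjured meninges, stood above both Flrt2 and Myo6 in injured meninges. In lung Ahnak led at 141 ± 0.44, followed by Emb at 69.5 ± 8.29. Exons of all annotated isoforms count in these lengths, so a gene read mainly from a short isoform is understated.

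Over the 209 tested genes of the 8 lists of related genes, which leave out the 6, edgeR called none between injured and uninjured meninges and DESeq2 called 5 higher and 2 lower (3.35%, against 2.86% of all genes with a DESeq2 adjusted p). An unadjusted p under 0.05 was reached by 17 of them (8.13%, against 8.94% of all genes). Their median log2 fold change was -0.09, against -0.00470 over all genes. The list with the most tested members, cortical actin and its linkers, had 18 positive and 39 negative fold changes of 57. That is 31.6% positive, against 49.4% of all genes, and the difference was not tested. Its smallest p was that of Myl12b, a myosin light chain, with 87.5, 58.0 and 74.8 CPM in injured and 144, 131 and 160.2 CPM in uninjured meninges (log2 fold change -0.98 ± 0.26, edgeR adjusted p = 0.24, DESeq2 adjusted p = 0.00232). The groups of Myl12b did not overlap.

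Between uninjured meninges and lung, 3 of the 209 genes were called, all lower in meninges, against 0.595% of all genes called lower and 0.0397% called higher, and 34 had an unadjusted p under 0.05 (16.3%, against 7.98% of all genes). All 3 were in the cortical actin list. Vim, the gene of the intermediate filament protein vimentin, stood at 89.2 ± 19.2 CPM in uninjured meninges, against 264 ± 28.2 CPM in lung (log2 fold change -1.57 ± 0.27, edgeR adjusted p = 0.010). Sptbn1, a spectrin, averaged 381 ± 98.6 against 926 ± 151 CPM (-1.28 ± 0.22, edgeR adjusted p = 0.0077), and Cd44, the hyaluronan receptor, 289.5 ± 20.3 against 721 ± 173 CPM (-1.31 ± 0.22, edgeR adjusted p = 0.0077). Without uninjured meninges 2 no listed gene was called, without lung 3 only 1, and without uninjured meninges 1 there were 10. Cd44 was not called without uninjured meninges 2 or lung 3, and Vim, beyond these, without uninjured meninges 3 or lung 1. Of the lists, the Flrt2 partners had a negative fold change for 11 of 11 genes, with a median of -0.89 and none called. Over all genes, 50.1% were positive. Flrt3 (0 against 8.37 ± 4.48 CPM), Robo1 (0 against 5.50 ± 6.29) and Fgfr2 (0.327 ± 0.566 against 25.8 ± 23.6) could pass the filter on low counts through lung. So could Adgrl3 (2.19 ± 3.39 against 53.4 ± 11.9 CPM) and Fgfr1 (0.127 ± 0.22 against 8.56 ± 4.93). That fixes their sign, so nothing is read from this count. Dlg5 and Wasf2, a WAVE subunit, had the smallest p of their lists without being called, at 4.95 ± 2.38 against 34.0 ± 3.21 CPM (edgeR adjusted p = 0.087) and 130.3 ± 21.6 against 269 ± 44.0 CPM (edgeR adjusted p = 0.095). The smallest p of the other lists belonged to Slc16a1 (20.6 ± 26.4 against 5.89 ± 5.6 CPM, edgeR adjusted p = 0.83), Cadm1 (0.381 ± 0.660 against 27.2 ± 27.1 CPM, 0.18), Flrt3 (0.16) and Myo5a, a vesicle-carrying myosin gene (75.3 ± 31.7 against 31.6 ± 11.7 CPM, 0.31). DESeq2 called 13 of these 209 genes, each lower in meninges, and Unc5c, which was under the filter on low counts here. Its calls were 6.70% of the listed genes with a DESeq2 adjusted p, against 3.52% of all genes. Among the genes called, Flrt3, Robo1, Unc5c, Fgfr1, Cadm1, Pard6b and Ahnak2 were near 0 in uninjured meninges and could only be called lower. Nothing is read from the shared direction or the share of these calls, nor from the 16.3% above.

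**Figure D3:**
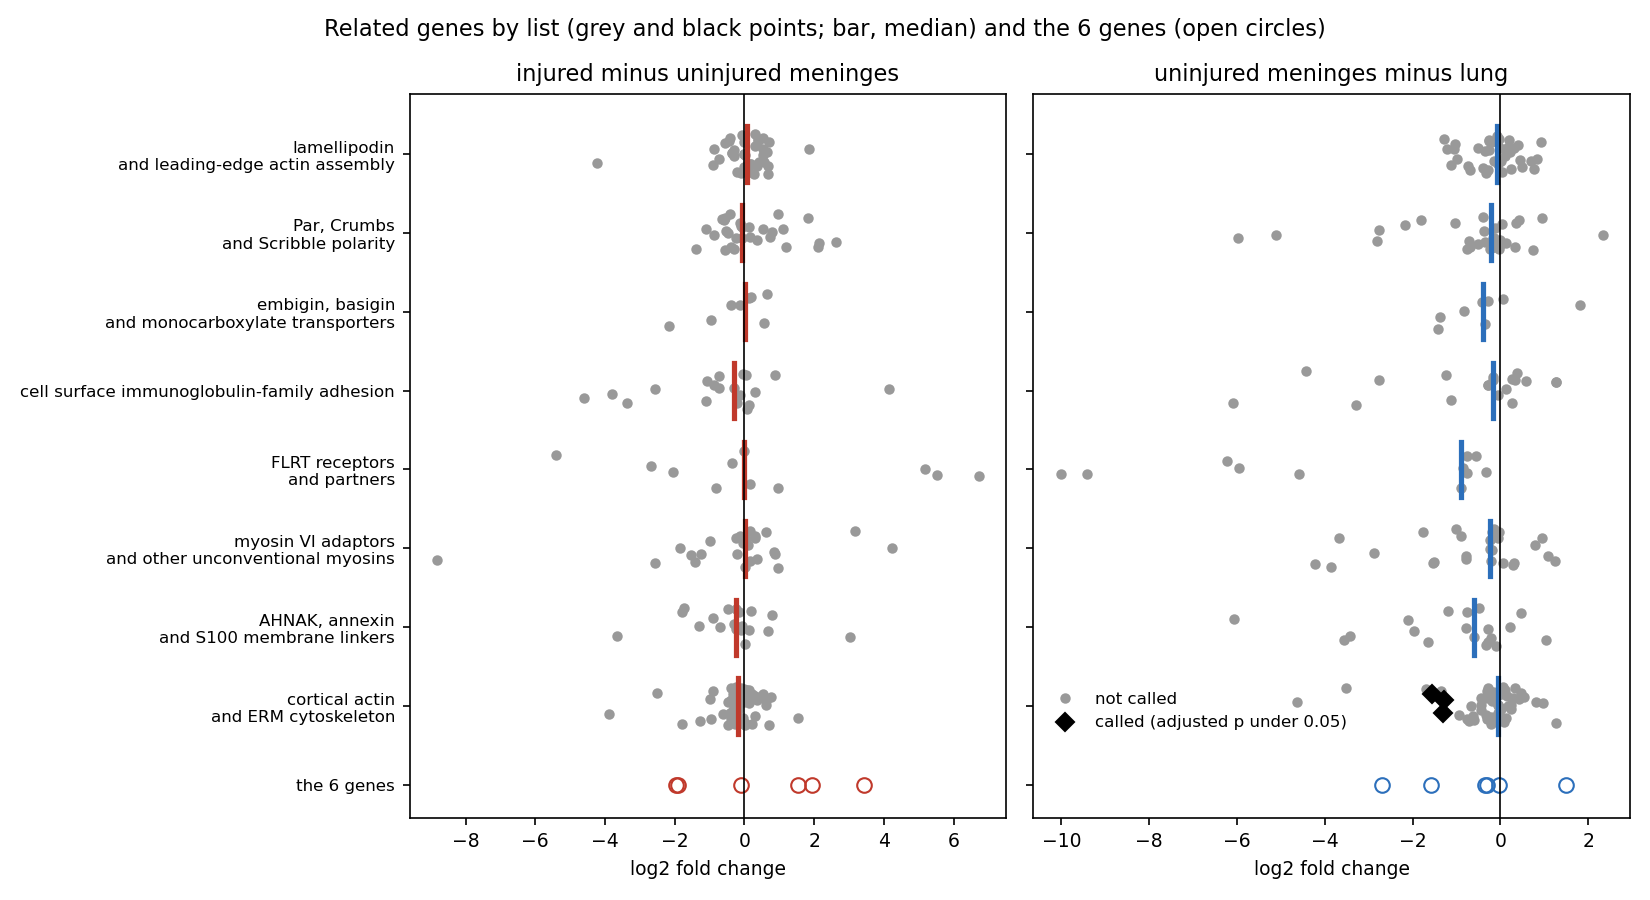
Log2 fold change (x axis) of 209 related genes in 8 lists (points, with a bar at each list's median) and of the 6 genes (open circles), for injured minus uninjured meninges on the left and uninjured meninges minus lung on the right. No related gene is called on the left, and on the right 3 genes of the cortical actin list, Vim, Sptbn1 and Cd44, are called (black diamonds).

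The genes whose levels ran most like each of the 6 over the 9 libraries were ranked by Pearson's r of log2(CPM + 1). The ranking covered 7270 tested genes with at least 10 CPM on average. Genes with predicted, clone, RIKEN, ribosomal, mitochondrial or small RNA names were left out of it, as were unnamed genes. All points share their libraries and fall into 3 groups, so r mostly describes the group means. Ikzf3, the lymphoid transcription factor Aiolos, came first for both Pard3 (r = 0.98) and Emb (r = 0.971), at 1906 ± 330 CPM in injured meninges, 273 ± 15.8 in uninjured meninges and 378 ± 9.58 in lung. Ivns1abp (r = 0.969) and Emb itself (r = 0.943) came next for Pard3. Snx13 and the Notch ligand gene Jag1 followed for Emb (r = 0.955 and 0.953). Raph1 ran most like Inafm1 (r = 0.976), Tfdp2 (r = 0.959) and Plaur, the urokinase receptor gene (r = 0.948), all lowest in uninjured meninges. Plaur stood at 50.3 ± 14.2, 1.01 ± 1.53 and 17.0 ± 5.34 CPM in injured meninges, uninjured meninges and lung.

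Flrt2 ran most like the chemokine receptor gene Ccr2 (r = 0.938), the scavenger receptor gene Stab2 (r = 0.936) and Copg2 (r = 0.932). Ccr2 averaged 607 ± 125 CPM in injured meninges, 1368 ± 118 in uninjured meninges and 1330 ± 253 in lung, the same order of injured against the rest. Myo6 had less close companions in Tgtp2 (r = 0.896), Ltb (r = 0.88) and Bap1 (r = 0.876), each highest in uninjured meninges. Ahnak ran most like Vim (r = 0.977), then Mfap4 (r = 0.974) and Atf3 (r = 0.973). Mfap4 and Atf3 were at 0 in injured meninges, at 0.363 ± 0.628 and 0 CPM in uninjured meninges and at 54.7 ± 6.41 and 41.2 ± 13.2 CPM in lung.

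Markers of other cells moved with some of these differences. The summed level of 8 B cell markers, all in the table, was 59.8, 134 and 31.7 CPM in injured meninges and 719, 214 and 947 CPM in uninjured meninges, where most of it came from the immunoglobulin gene Ighm (579 ± 359 CPM), and no B cell marker was at 0 in all libraries of a group. It was lower after injury like Flrt2 and Myo6. Uninjured meninges 1, 2 and 3, with B cell sums of 719, 214 and 947 CPM, held Myo6 at 224, 179 and 148 CPM. Flrt2 stood at 168, 148 and 173 CPM in these libraries. Lineage-negative gating is meant to leave B cells out, and the part of their RNA in these levels was not tested. The 11 fibroblast markers summed to 36.4, 16.4 and 5.39 CPM in injured and 87.0, 4.65 and 41.0 CPM in uninjured meninges, so those groups overlapped, and Lum, Pdgfra and Dpt were at 0 in injured meninges. The 10 endothelial markers summed to 85.1 to 204 against 88.0 to 301 CPM and overlapped too. The 8 genes of gate and identity summed to 8210 to 10900 CPM in injured and 7610 to 8000 CPM in uninjured meninges. That sum, too, was higher after injury, as were Raph1, Pard3 and Emb, but its genes did not move together. Il7r averaged 2086 ± 367 against 1301 ± 224 CPM and Rora 1000 ± 241 against 486 ± 18.0 CPM. Gata3 was level at 536 ± 58.2 against 549 ± 84.2 CPM, and Thy1 was lower at 68.0 ± 21.6 against 225 ± 56.3 CPM.

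In the comparison with lung, where Ahnak and Raph1 were lower and Myo6 higher in uninjured meninges, fibroblast markers summed to 4.65 to 87.0 CPM in uninjured meninges and 127 to 360 CPM in lung. The 9 epithelial markers summed to 4.03 to 10.9 against 688 to 2170 CPM, with Krt18, Krt19 and Cldn18 at 0 in uninjured meninges. Within lung the epithelial sum was 2170, 688 and 1300 CPM in libraries 1, 2 and 3, while Ahnak was 2817, 2810 and 2827 CPM. Raph1 was lowest in lung 1, where that sum was highest. The part of other cells in the differences from lung was not tested.

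**Figure D4:**
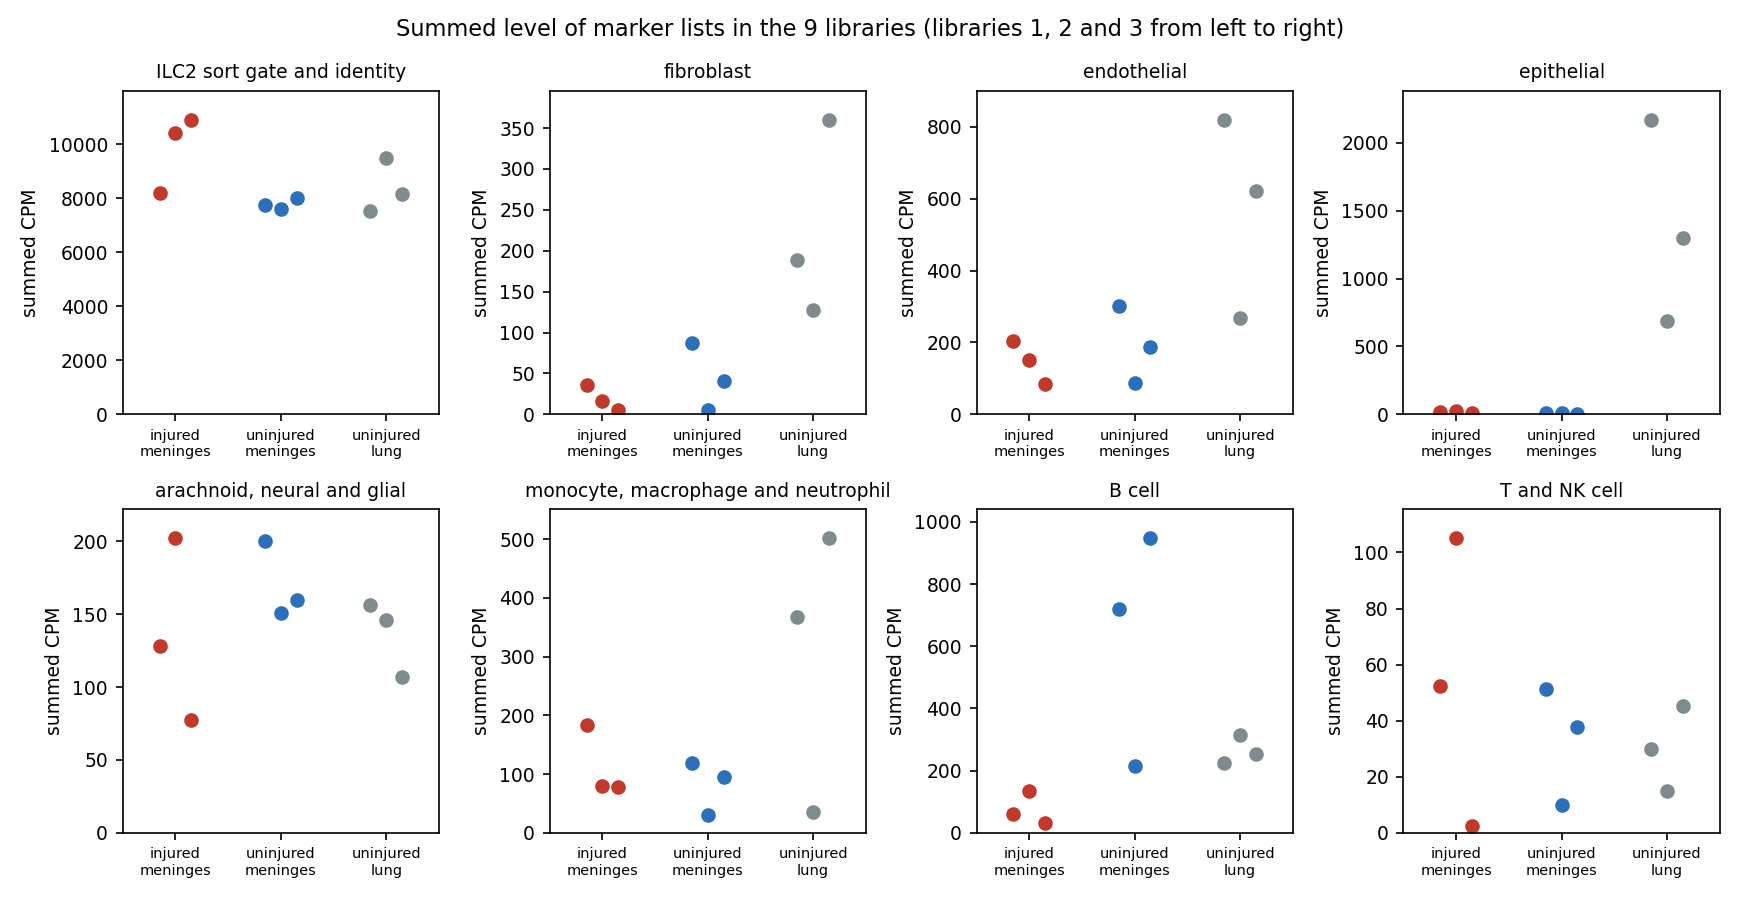
Summed CPM (y axis, from 0) of 8 marker lists in each library, in the order injured meninges, uninjured meninges and uninjured lung. B cell markers are at 31.7 to 134 CPM in injured and 214 to 947 CPM in uninjured meninges, and epithelial and fibroblast markers are highest in lung.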

How the data were processed

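The authors deposited 1 table of raw counts per gene for the 9 libraries, without normalization. Per the labels, PicoPure was used for RNA extraction and Ovation for amplification. The submitters' processing notes name FastQC, STAR, HTSeq and the mm9 build without versions. Library totals were 13407277 to 18253462 counts. The amplified reads are not independent molecules, so limits from counts cover counting error only.

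Genes were kept by filterByExpr (15117 of 23466) and tested with edgeR 4.0.16 in R 4.3.3, in 1 robust quasi-likelihood fit of all 9 libraries with a mean per group, trimmed mean of M values scaling and Benjamini-Hochberg adjustment over all genes, at 0.05. Each SE was computed as |log2 fold change| over the root of the F statistic. The test was run on simulated data with known changes first. No libraries of a group agreed within sampling noise (lowest chi-square per degree of freedom 62.8).

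The table named 15969 identifiers and a reference list 7407 more, and 90 had no name. Of 243 related genes in 8 lists, 236 were in the table and 209 were tested. The 6 genes and the lists were chosen with earlier results of these data known. Named genes are the 6, fixed partners of each, up to 3 called genes of each list and comparison or else the gene with the smallest p (1 such gene is not reported here), the 3 genes of most like pattern, and markers. Genes that DESeq2 1.42.0 called are named outside this rule and were chosen after their values were seen. Alternatives were DESeq2's test and size factors, no filter, 6 libraries only, a replicate block, mitochondrial genes left out, and each library left out. Promoter windows are RefSeq's on GRCm38.p6, and lengths and overlaps are from GENCODE M21, matched by identifier, since the files give no coordinates.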

Additional observations from a re-analysis of the deposited data

How the results depend on the processing

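Each result was recomputed under 15 alternatives. The log2 fold changes of the 6 genes that passed the threshold kept their direction in all 15, and all stayed within the spread between libraries. After injury they ran from 2.98 to 4.35 for Raph1, 1.77 to 2.14 for Pard3, 1.41 to 1.69 for Emb, -2.16 to -1.77 for Flrt2 and -2.12 to -1.73 for Myo6. With only the 6 libraries compared, Raph1, Flrt2 and Myo6 missed the threshold after injury, where 0.0901% of all genes passed it. These values were used to choose the genes, so their range is a description.

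Counts over all genes depended on the test. After injury they were 29, against 435 with DESeq2 (213 higher, 222 lower, where edgeR had 20 and 9), 78 without a filter, 12 with only the 6 libraries compared, and 18 to 27 with 1 library left out. Against lung they were 96, against 535, 193 and 226, and 51 to 196 with 1 library left out. Listed genes called after injury were 0, or 5 higher and 2 lower with DESeq2, and against lung 3 lower, or 14 with DESeq2, 5 without a filter, 7 with only the 6 libraries compared and 0 to 10 with 1 library left out. Of the 15 alternatives, Sptbn1 was called in 14, Cd44 in 13 and Vim in 11. The cause of these moves was not tested.

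The replicate numbers in the labels are shared by the groups without a stated pairing. Deviations of same-numbered libraries correlated at -0.0394 to 0.1 in 9 pairs, so they were not treated as pairs. With a replicate block, 43 genes were called after injury and 136 against lung, with 5 listed genes lower against lung. In these libraries the median SE was 0.95 after injury on the log2 scale, or 0.27 above 100 CPM, so small changes of scarce genes were not detectable.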
